A study of Mus musculus with 8 samples.

Results

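The Slc25 family comprises the mitochondrial carriers, and its members were taken as every non-control probe whose gene name on the array begins with Slc25a. This gave 42 genes on 50 of the 39429 probes. Of these 42, 38 passed the filter for signal above background and were tested among 21742 genes, and 4 (Slc25a2, Slc25a21, Slc25a41 and Slc25a43) were not well above background in any of the 16 channel measurements. Brown adipose tissue of Prdm16 knockout mice was set against brown adipose tissue of wild-type mice, at 11 months (4 arrays) and at 6 weeks (4 arrays). Prdm16 encodes a zinc-finger regulator of transcription that takes part in brown adipocyte fate, and the labels give the genotypes as Prdm16 KO and WT without the allele or a driver line. Each 2-colour array carried RNA from knockout tissue and from wild-type tissue of equal age. Knockout RNA carried Cy5 on 2 arrays and Cy3 on 2 arrays of each age. The labels speak of biological replicates, and both ages were run as separate batches, each on a slide of its own. Each value is a log2 ratio with knockout on top. A fitted value comes from a limma model and is followed by its standard error, with n = 4 arrays at either age. A gene is called where its p, adjusted over all 21742 genes, is below 0.05.

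Mitochondrial carriers are small proteins, nearly all of the inner mitochondrial membrane, that exchange metabolites, nucleotides and cofactors between cytosol and matrix. Brown fat uses them to bring acylcarnitines in for oxidation, to export citrate for fatty acid synthesis, to trade ADP for ATP and, through Ucp1, itself a relative of the family, to dissipate the proton gradient as heat. In tissue RNA, fewer brown adipocytes and less carrier RNA per adipocyte cannot be told apart.

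The tissue carried its defining markers, and several marker groups moved with genotype. The probe of Prdm16 itself gave -0.96, -0.18, -0.44 and -0.42 at 11 months and -0.39, 0.06, -1.09 and -0.88 at 6 weeks, so that 7 of 8 arrays lay below 0 and 6-week array 2 did not. Its fitted values were -0.50 ± 0.15 at 11 months (adjusted p = 0.0372) and -0.58 ± 0.15 at 6 weeks (adjusted p = 0.042). Whether this probe falls inside the deleted stretch is not in the labels. Of 8 brown adipocyte markers, 7 were lower in knockout tissue at 11 months, beside 16.8% of all genes. Adipoq, the gene for the hormone adiponectin, was higher, and the list medians lay between -3.03 and -2.29 in the 4 arrays. At 6 weeks Adipoq alone among the 8 was called, beside 16.2% of all genes, with 3 of 8 at an unadjusted p below 0.05. The fitted values at that age ran from -1.10 to 0.85, and the list medians lay between -0.43 and 0.03. Macrophage markers were higher in 4 of 6 and lower in 0 at 11 months, beside 17.9% and 16.8% of all genes. Their medians were 0.09, -0.01, 0.73 and 0.58 in 11-month arrays 1 to 4, so that the list rose in arrays 3 and 4 only. At 6 weeks 1 of 6 was higher and 1 lower, beside 9.18% and 7.01%, with medians between -0.16 and 0.08. Of 12 skeletal muscle markers, 0 were called at either age by limma, beside 34.7% of all genes at 11 months and 16.2% at 6 weeks. An unadjusted p below 0.05 was met by 0 of 12 at 11 months and by 1 of 12 at 6 weeks. Endothelial markers were called in 0 of 6 at 11 months, with 1 of 6 at an unadjusted p below 0.05. At 6 weeks 3 of 6 were lower (Pecam1, Tie1 and Flt1), beside 7.01% of all genes, with 5 of 6 at an unadjusted p below 0.05. The endothelial medians lay between -0.14 and 0.15 in the 11-month arrays and between -0.33 and -0.22 in the 6-week arrays. Of 5 nerve and Schwann cell markers, S100b alone was called at 11 months, and was lower (-2.37 ± 0.49, adjusted p = 0.00767), beside 34.7% of all genes called. At 6 weeks 0 of 5 were called by limma, beside 16.2% of all genes, with 1 of 5 at an unadjusted p below 0.05. The muscle medians spread widely, with -0.44, -1.23, -0.30 and 1.72 in 11-month arrays 1 to 4 and 0.09, -2.76, 2.94 and -3.40 in 6-week arrays 1 to 4. The summed intensity of the 12 muscle markers ran from 75000 to 658000 in knockout channels and from 86500 to 499000 in wild-type channels at 11 months, and at 6 weeks from 8120 to 40700 in knockout channels and from 4160 to 155000 in wild-type channels. With the muscle median of each array as a covariate, a setting chosen after seeing the data, 4 carriers were higher and 15 lower at 11 months. At 6 weeks 3 were higher and 2 lower. Over all genes that setting gave 3572 higher and 3350 lower at 11 months, against 3897 and 3647 without the covariate. The all-gene counts at 6 weeks were 1281 and 912, against 1995 and 1525. The part of macrophage, endothelial or nerve RNA in the carrier results was not tested.

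At 11 months 19 of the 38 carriers were called, with 4 higher and 15 lower in knockout tissue, against 34.7% of all genes tested (17.9% higher and 16.8% lower). The median ratio over the 38 was -0.17, and that over all genes was 0.0082. At 6 weeks 8 were called, 4 higher and 4 lower, against 16.2% of all genes (9.18% higher and 7.01% lower), with a family median of -0.07 and an all-gene median of -0.0011. Centring each array on its median in place of loess left 4 carriers higher and 5 lower at 11 months (3480 and 1432 of all genes, against 3897 and 3647 with loess). Slc25a11, Slc25a20, Slc25a32 and Slc25a35 were among the 5. At 6 weeks that setting left 2 higher and 0 lower (664 and 284 of all genes, against 1995 and 1525), namely Slc25a10 and Slc25a25, and the family median became 0.02. Of the differences between ages it left that of Slc25a32. Slc25a10 and Slc25a25 were called higher at both ages, and Slc25a33 was among the 2 called lower at both. A further 13 were called lower at 11 months and not called at 6 weeks, and 15 were not called at either age. The share of all genes in each of these classes is not given here. The difference between ages itself was called in 13 carriers (4 with the higher ratio at 11 months and 9 with the lower), against 18.2% of all genes (8.46% and 9.71%). Each age lay on its own slide, was run as its own batch and was scanned with its own software version, so none of these can be told apart from age in that difference.

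**Figure D1:**
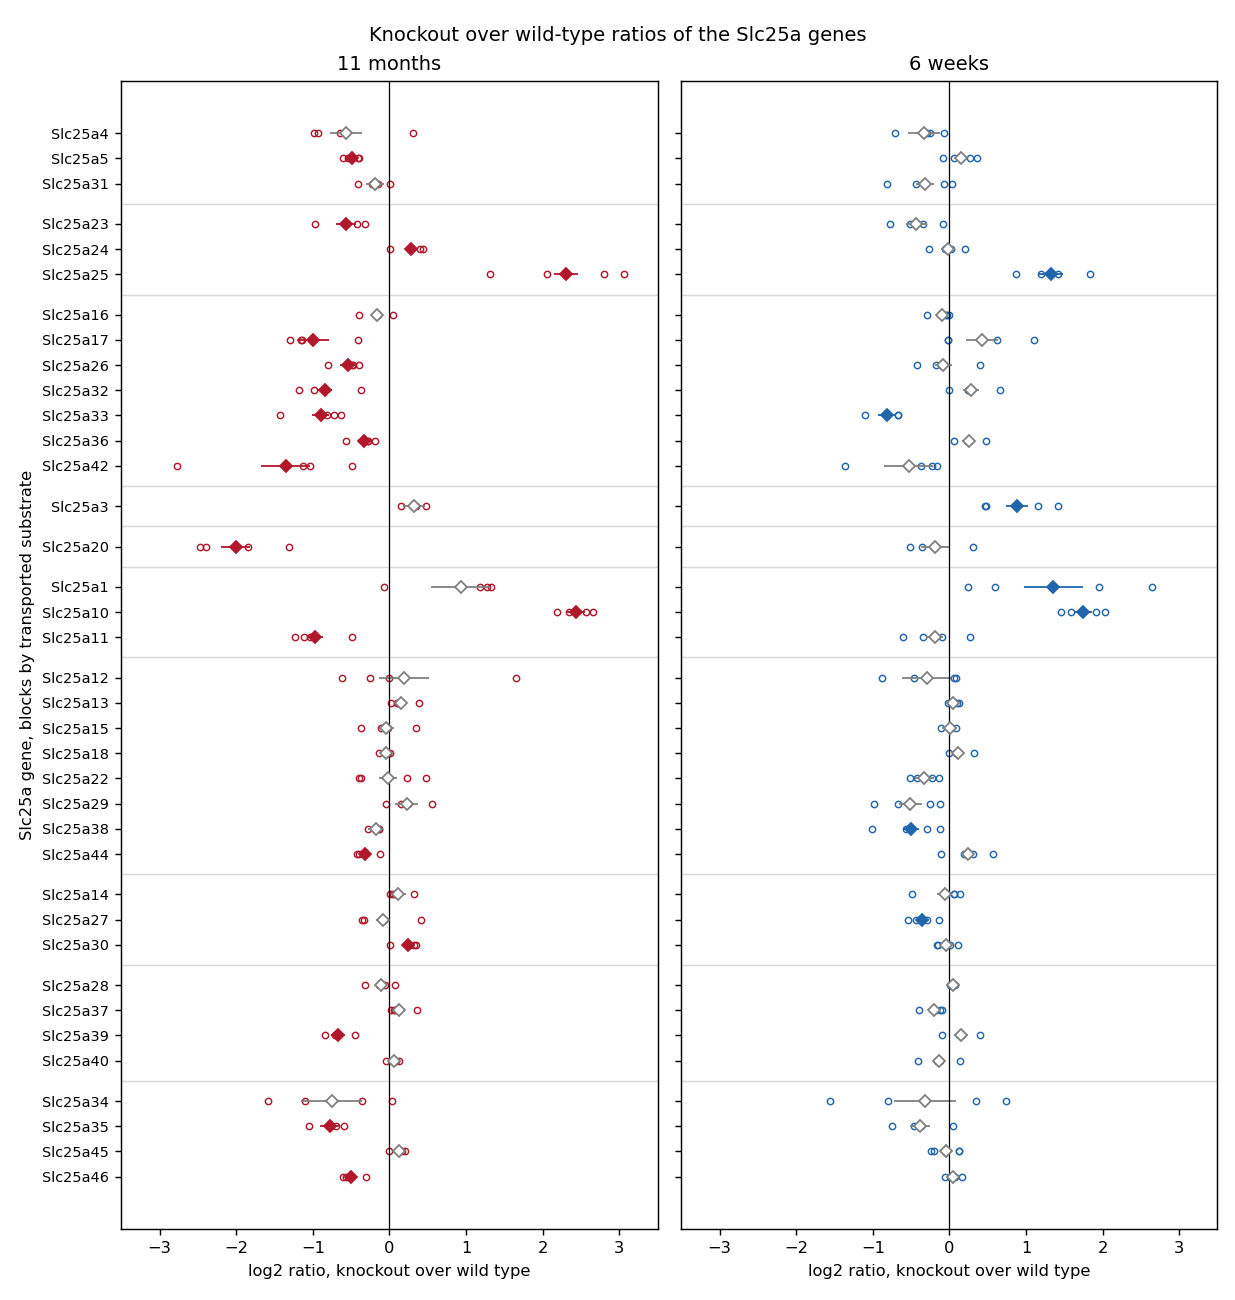
Knockout over wild-type ratios (log2) of the Slc25a genes in blocks by transported substrate, with 11 months on the left and 6 weeks on the right. Open circles are the 4 arrays of an age, diamonds are fitted values with 1 standard error, and filled diamonds are called genes, with Slc25a20 lowest at -2.01 and Slc25a10 highest at 2.44 at 11 months.

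The promoters of 4 carriers are shown because they stand for the directions of the family at 11 months, Slc25a20 and Slc25a11 for the lower members and Slc25a10 and Slc25a1 for those with positive ratios. Each run is the 250 bases before the annotated start, 5′ to 3′ on the gene's strand, from RefSeq promoters of build GRCm38.p6, which held 41 windows for 32 of the 42 genes. The windows are chr9:108661886-108662135 (plus strand) for Slc25a20, chr11:70647040-70647289 (minus strand) for Slc25a11, chr11:120491587-120491836 (plus strand) for Slc25a10 and chr16:17928220-17928469 (minus strand) for Slc25a1. Capitals mark matches, on either strand, to 6 motifs named in the next paragraph.
Slc25a20: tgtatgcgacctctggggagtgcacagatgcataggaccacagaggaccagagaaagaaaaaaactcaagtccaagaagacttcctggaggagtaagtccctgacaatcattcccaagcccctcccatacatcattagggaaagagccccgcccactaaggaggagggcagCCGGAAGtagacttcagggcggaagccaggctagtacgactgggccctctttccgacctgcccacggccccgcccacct
Slc25a11: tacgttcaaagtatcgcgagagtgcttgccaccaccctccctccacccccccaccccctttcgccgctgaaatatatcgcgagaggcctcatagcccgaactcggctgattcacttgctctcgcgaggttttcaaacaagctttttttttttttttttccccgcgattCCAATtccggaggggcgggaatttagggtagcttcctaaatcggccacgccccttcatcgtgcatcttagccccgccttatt
Slc25a10: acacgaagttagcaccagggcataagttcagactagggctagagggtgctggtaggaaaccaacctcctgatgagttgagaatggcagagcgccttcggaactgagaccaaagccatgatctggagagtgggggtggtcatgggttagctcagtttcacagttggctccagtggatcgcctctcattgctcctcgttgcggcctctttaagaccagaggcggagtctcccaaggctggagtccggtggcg
Slc25a1: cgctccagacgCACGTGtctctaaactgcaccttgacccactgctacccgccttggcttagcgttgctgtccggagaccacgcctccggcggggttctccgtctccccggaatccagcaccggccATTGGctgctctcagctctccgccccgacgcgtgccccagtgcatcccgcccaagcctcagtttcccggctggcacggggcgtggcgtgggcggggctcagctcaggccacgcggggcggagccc

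The motifs searched were the ETS site CCGGAAG, the CCAAT box CCAAT, the E-box CACGTG, the NRF1 site, the estrogen-related receptor element AAGGTCA and the sterol response element TCACNCCAC. Shares are of windows throughout. Slc25a20 held an ETS site, found in 6.91% of 32851 RefSeq promoter windows and in 5 of the 41 carrier windows (Slc25a3, Slc25a4, Slc25a17, Slc25a20 and Slc25a38). Slc25a11 and Slc25a1 held a CCAAT box, present in 33.8% of all windows and in 19 of the 41. Slc25a1 also held an E-box, found in 6.02% of all windows and in 8 of the 41. No capitals stand in the Slc25a10 window. The NRF1 site was in 3.74% of all windows and in 2 of the 41 (Slc25a3 and Slc25a31), the receptor element in 4.08% and in 1 (Slc25a34), and the sterol response element in 1.05% and in 1 (Slc25a18). A letter match describes these windows and says nothing of binding.

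The largest fall of the family at 11 months was that of Slc25a20, the carnitine-acylcarnitine carrier that brings fatty acids bound to carnitine into the matrix. Its ratios were -1.85, -2.39, -2.48 and -1.31 in 11-month arrays 1 to 4, and -0.19, 0.31, -0.51 and -0.35 in 6-week arrays 1 to 4. Every 11-month array lay below every 6-week array. Normalised log2 intensity at 11 months was 11.64, 11.41, 11.27 and 12.49 in knockout channels, against 13.49, 13.80, 13.74 and 13.80 in wild-type channels, with no overlap. At 6 weeks the knockout channels gave 12.74, 13.34, 13.07 and 13.28 and the wild-type channels 12.93, 13.03, 13.58 and 13.64, which overlap. The fitted ratio was -2.01 ± 0.18 at 11 months (4.02-fold lower, adjusted p = 0.000198) and -0.19 ± 0.18 at 6 weeks (95% interval -0.62 to 0.24, adjusted p = 0.531). The difference between ages was -1.82 ± 0.26 (adjusted p = 0.00484). With median centring the 6-week value was 0.06. Among the enzymes of the carnitine shuttle, Cpt1b, the muscle and brown fat form that makes acylcarnitine at the outer membrane, fell by 2.74 ± 0.35 at 11 months (adjusted p = 0.000888). Cpt2, which releases the fatty acid inside, fell by 0.70 ± 0.12 (adjusted p = 0.00362), and Cpt1a, the liver form of the first enzyme, rose by 0.99 ± 0.07 (adjusted p = 8.95e-05). Crat, carnitine acetyltransferase, had -0.46 ± 0.16 (adjusted p = 0.055). At 6 weeks Cpt1a alone of these 4 enzymes was called (0.28 ± 0.07, adjusted p = 0.0428), beside 16.2% of all genes.

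**Figure D2:**
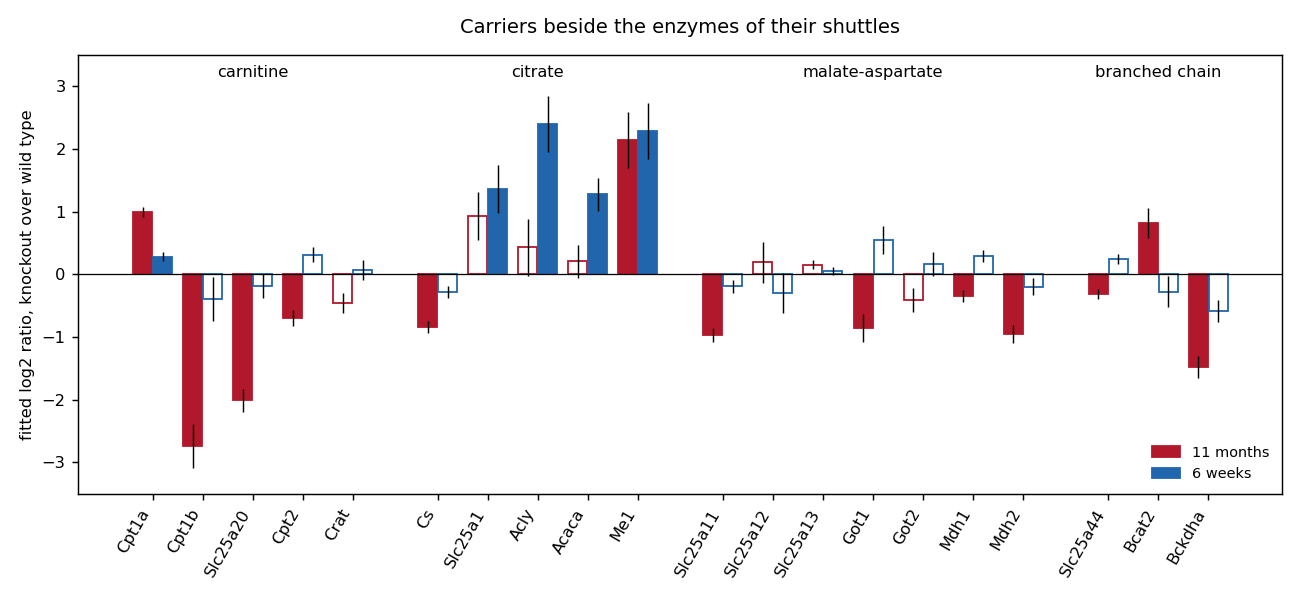
Fitted knockout over wild-type ratios (log2) with 1 standard error for carriers and the enzymes of the carnitine shuttle, citrate export, the malate-aspartate shuttle and branched-chain amino acid entry, at 11 months (red, left bar) and 6 weeks (blue, right bar). Filled bars are called and open bars are not; Slc25a20 and Cpt1b stand at -2.01 and -2.74 at 11 months.

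Carriers of carboxylates moved apart from each other. Slc25a10, the dicarboxylate carrier that exchanges malate and succinate for phosphate, was higher in knockout tissue in all 8 arrays. Its ratios were 2.57, 2.66, 2.18 and 2.35 at 11 months and 2.03, 1.91, 1.45 and 1.59 at 6 weeks. The ages did not overlap in ratio, and knockout and wild-type channels did not overlap in intensity, with means of 11.33 ± 0.44 in knockout and 8.89 ± 0.57 in wild-type channels at 11 months (SD, n = 4 each) and 10.08 ± 0.08 and 8.34 ± 0.19 at 6 weeks. Fitted values were 2.44 ± 0.12 at 11 months (5.43-fold, adjusted p = 1.89e-05) and 1.75 ± 0.12 at 6 weeks (3.35-fold, adjusted p = 0.00062). The difference of 0.69 ± 0.16 (adjusted p = 0.0261) lost its call without 11-month array 1 or 2 (adjusted p = 0.0699 and 0.0751) and without 6-week array 2, 3 or 4 (adjusted p = 0.0517, 0.0628 and 0.0725). Without the 4 arrays of largest muscle median in size (6-week arrays 2 to 4 and 11-month array 4), a setting also chosen after seeing the data that leaves 1 array at 6 weeks, it was 0.15 (adjusted p = 0.647).

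Slc25a1, the citrate carrier whose export feeds cytosolic acetyl-CoA, had positive ratios in 7 of 8 arrays with a wide spread. The ratios were 1.33, 1.19, 1.27 and -0.07 at 11 months and 2.64, 1.95, 0.60 and 0.24 at 6 weeks. At 6 weeks its knockout channels lay between 15.22 and 15.71, while the wild-type channels were 13.06 and 13.35 in arrays 1 and 2 and 15.00 and 14.98 in arrays 3 and 4. Wild-type RNA carried Cy5 in arrays 1 and 2 and Cy3 in arrays 3 and 4. Fitted values were 0.93 ± 0.38 at 11 months (adjusted p = 0.0988) and 1.36 ± 0.38 at 6 weeks (2.56-fold, adjusted p = 0.0493). The 6-week call was at the threshold and ended without any of the 6-week arrays 1 to 4 (adjusted p = 0.21, 0.159, 0.0915 and 0.0542) and without 11-month array 1, 2 or 3 (adjusted p = 0.059, 0.0696 and 0.0693). The 6-week call held in 7 of 21 alternative settings. Without 11-month array 4 the 11-month value was 1.45 (adjusted p = 0.0128). Beside it, Acly, which splits exported citrate, had 0.43 ± 0.45 at 11 months (adjusted p = 0.501) and was higher at 6 weeks (2.39 ± 0.45, adjusted p = 0.0142). Acaca, which makes malonyl-CoA, had 0.21 ± 0.27 at 11 months (adjusted p = 0.588) and was higher at 6 weeks (1.27 ± 0.27, adjusted p = 0.0202). In 11-month arrays 1 to 4 Acly gave 0.85, 0.65, 1.46 and -1.24, and Acaca gave 0.43, 0.60, 0.33 and -0.53. For both genes only array 4 lay below 0. The difference between ages was called for neither (adjusted p = 0.071 and 0.0912). Me1, the malic enzyme that supplies NADPH, was higher at both ages, by 2.14 ± 0.45 at 11 months (adjusted p = 0.00829) and 2.28 ± 0.45 at 6 weeks (adjusted p = 0.0166). Cs, the citrate synthase of the matrix, fell by 0.84 ± 0.10 at 11 months (adjusted p = 0.000687).

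Slc25a11, the oxoglutarate-malate carrier of the malate-aspartate shuttle, was lower at 11 months with ratios of -1.11, -1.23, -1.04 and -0.48, against -0.10, 0.27, -0.61 and -0.34 at 6 weeks. The least affected 11-month array lay inside the 6-week range. Fitted values were -0.97 ± 0.11 at 11 months (1.96-fold lower, adjusted p = 0.000412) and -0.19 ± 0.11 at 6 weeks (adjusted p = 0.246), with a difference of -0.77 ± 0.15 (adjusted p = 0.013). The difference lost its call without the dye coefficient (adjusted p = 0.0561). The 6-week value was 0.05 with median centring. The aspartate-glutamate carriers of the same shuttle gave no call. Slc25a12 had ratios of -0.26, -0.63, -0.01 and 1.65 at 11 months and 0.06, -0.87, 0.09 and -0.47 at 6 weeks. Its highest value came from 11-month array 4, where the muscle marker median was 1.72, and its lowest from 6-week array 2, where that median was -2.76. In 6-week array 3, with a muscle median of 2.94, it was 0.09. The fitted values of 0.19 ± 0.32 at 11 months and -0.30 ± 0.32 at 6 weeks were not called, and they changed sign without 11-month array 4 (-0.29) and without 6-week array 2 (0.04). Slc25a13, which was well above background in only 9 of 16 channel measurements and in 0 of the 4 wild-type channels at 11 months, had ratios of 0.10, 0.11, 0.02 and 0.38 at 11 months and 0.09, -0.02, 0.12 and 0.02 at 6 weeks. Of the 4 soluble enzymes of the shuttle, Mdh2 (-0.95 ± 0.14, adjusted p = 0.00151), Got1 (-0.86 ± 0.22, adjusted p = 0.0199) and Mdh1 (-0.35 ± 0.09, adjusted p = 0.0234) fell at 11 months, and Got2 had -0.41 ± 0.20 (adjusted p = 0.15). At that age 16.8% of all genes were lower. At 6 weeks 0 of the 4 enzymes were called by limma, beside 16.2% of all genes, with 2 of 4 below an unadjusted p of 0.05.

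**Figure D3:**
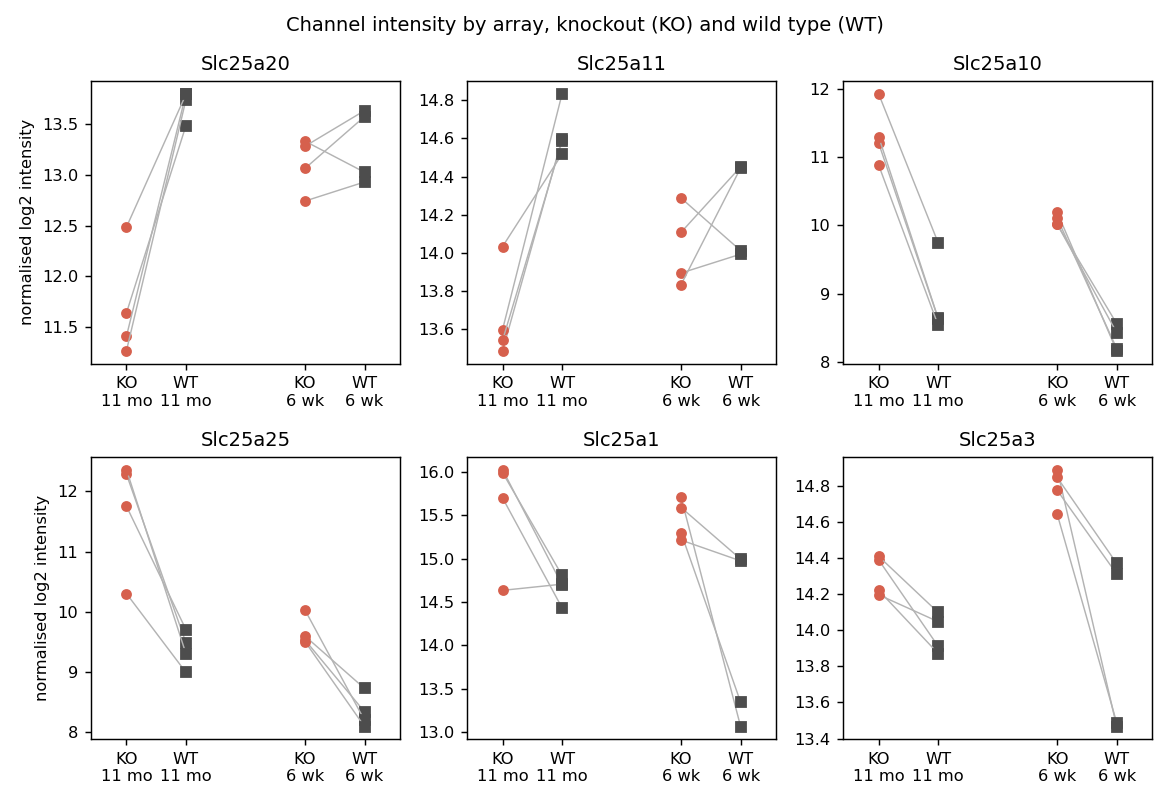
Normalised log2 intensity of 6 carriers in each array, with knockout (KO, circles) left of wild type (WT, squares) at each age and lines joining the channels of an array. Slc25a20 and Slc25a11 separate by genotype at 11 months, Slc25a1 at 6 weeks, and Slc25a10, Slc25a25 and, by a narrow margin at 11 months, Slc25a3 at both ages. Wild-type Slc25a1 and Slc25a3 at 6 weeks fall into pairs by array.

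The ADP/ATP carriers, which export ATP made in the matrix, gave 1 call among 3 at 11 months, a share like the 34.7% of all genes. At 6 weeks they gave 0 calls among 3 by limma, beside 16.2% of all genes, and 1 of 3 had an unadjusted p below 0.05. Slc25a5, the widely expressed form, had ratios of -0.39, -0.60, -0.54 and -0.41 at 11 months, against 0.27, 0.36, -0.08 and 0.06 at 6 weeks, without overlap between ages. It was lower at 11 months (-0.49 ± 0.07, 1.40-fold, adjusted p = 0.00153) and not called at 6 weeks (0.15 ± 0.07, adjusted p = 0.176), with a difference of -0.64 ± 0.10 (adjusted p = 0.00617). Slc25a4, the form that predominates in heart and skeletal muscle, gave -0.65, -0.99, -0.93 and 0.31 at 11 months and -0.71, -0.29, -0.26 and -0.07 at 6 weeks. Knockout was lower in 3 of 4 arrays at 11 months and in 4 of 4 at 6 weeks, and the single positive value was again 11-month array 4. Its fitted values of -0.56 ± 0.21 (adjusted p = 0.0721) and -0.33 ± 0.21 (adjusted p = 0.317) were not called. Without 11-month array 4 the 11-month value was -0.90 (adjusted p = 0.00158). Slc25a31, a form known from testis, was dim (well above background in 9 of 16) with ratios of -0.15, -0.23, 0.01 and -0.40 at 11 months and 0.03, -0.07, -0.44 and -0.81 at 6 weeks, and was not called.

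**Figure D4:**
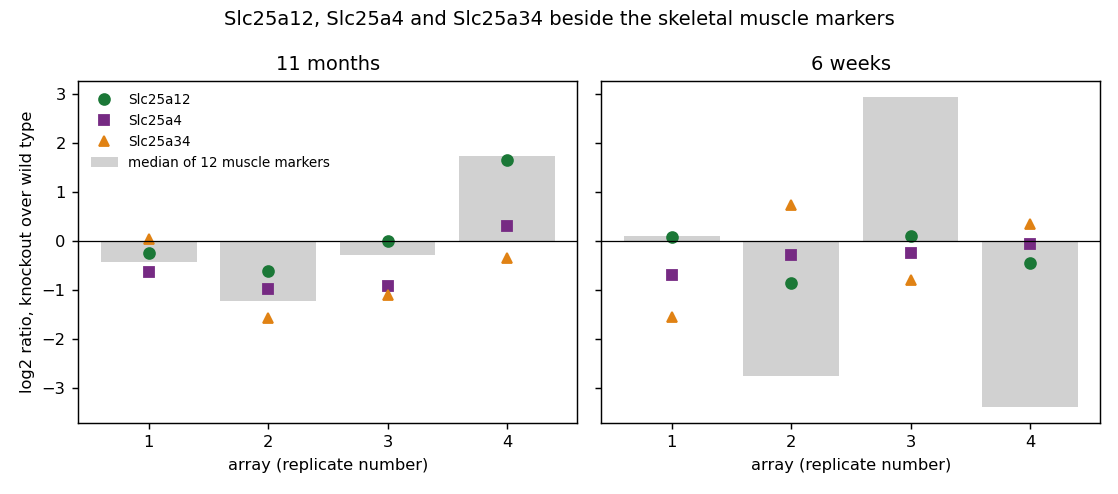
Log2 ratios of Slc25a12, Slc25a4 and Slc25a34 (points) beside the median ratio of 12 skeletal muscle markers (grey bars) in each array, with 11 months on the left and 6 weeks on the right. Slc25a12 and Slc25a4 have their only clearly positive ratios, 1.65 and 0.31, in 11-month array 4, where the muscle median is 1.72; at 6 weeks Slc25a4 lies between -0.71 and -0.07.

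Calcium-regulated ATP-Mg/phosphate carriers, which set the adenine nucleotide content of the matrix, were all called at 11 months among the 3 tested, in opposite directions. Of these, 2 were higher and 1 lower, beside 17.9% and 16.8% of all genes. Slc25a25 had ratios of 2.80, 3.06, 2.05 and 1.31 at 11 months and 1.19, 0.87, 1.83 and 1.41 at 6 weeks. Knockout exceeded wild type in every array, and the ages overlapped through 11-month array 4. Fitted values were 2.31 ± 0.15 at 11 months (4.94-fold, adjusted p = 5.93e-05) and 1.33 ± 0.15 at 6 weeks (2.51-fold, adjusted p = 0.00283), and a second probe gave 1.91 and 1.08. The difference of 0.98 ± 0.22 (adjusted p = 0.0211) lost its call without 11-month array 1, 2 or 3 (adjusted p = 0.0556, 0.0654 and 0.0534), without 6-week array 2 or 4 (adjusted p = 0.0588 and 0.0519) and without the dye coefficient (adjusted p = 0.129). Slc25a24 gave 0.01, 0.26, 0.40 and 0.43 at 11 months (0.28 ± 0.07, adjusted p = 0.0138) and 0.20, 0.02, -0.06 and -0.26 at 6 weeks. That call ended without 11-month array 2 (adjusted p = 0.0772), without the dye coefficient (adjusted p = 0.0573) and without the 4 arrays of largest muscle median (adjusted p = 0.0569). Slc25a23 was lower at 11 months (-0.57 ± 0.13, adjusted p = 0.0133), a call that ended without 11-month array 2 (adjusted p = 0.0651). At 6 weeks it had -0.43 ± 0.13 (adjusted p = 0.0654), and the difference between ages was -0.14 ± 0.19.

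Slc25a3, which brings in the phosphate for ATP synthesis, gave 0.48, 0.35, 0.15 and 0.31 at 11 months and 1.42, 1.16, 0.46 and 0.48 at 6 weeks. Knockout exceeded wild type in all 8 arrays. The 11-month value of 0.32 ± 0.14 (adjusted p = 0.119) was not called, and the 6-week value of 0.88 ± 0.14 (1.84-fold, adjusted p = 0.00855) was. The difference of -0.56 ± 0.20 was not called (adjusted p = 0.0952). As with Slc25a1, wild-type intensity at 6 weeks was lower in arrays 1 and 2 (13.47 and 13.49) than in arrays 3 and 4 (14.31 and 14.37), while knockout channels held between 14.64 and 14.89. A second probe gave 0.29 at 11 months and 1.17 at 6 weeks.

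Carriers of other nucleotides and of cofactors were lower at 11 months in 7 of 8, beside 16.8% of all genes, with a group median of -0.87, and Slc25a16, a relative of the coenzyme A carriers, had -0.17 ± 0.07 (adjusted p = 0.0993). At 6 weeks 2 of the 8 were lower and 0 higher, beside 7.01% and 9.18% of all genes, with a median of -0.09. Slc25a42, which carries coenzyme A, gave -1.04, -1.12, -2.77 and -0.49 at 11 months and -1.36, -0.37, -0.23 and -0.16 at 6 weeks. It was lower in all 8 arrays, but a single array of each age lay far below the others. The fitted value was -1.36 ± 0.32 at 11 months (2.56-fold lower, adjusted p = 0.0136), a call that ended without 11-month array 1 or 2 (adjusted p = 0.0535 and 0.0599), and -0.53 ± 0.32 at 6 weeks (adjusted p = 0.297).

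Slc25a33, a carrier of pyrimidine nucleotides, was lower at both ages to a like degree, with ratios of -0.63, -0.72, -1.43 and -0.81 at 11 months and -1.10, -0.67, -0.81 and -0.67 at 6 weeks. Fitted values were -0.90 ± 0.11 (adjusted p = 0.000839) and -0.81 ± 0.11 (adjusted p = 0.00536), with a difference of -0.09 (95% interval -0.46 to 0.29). A second probe gave -0.80 and -0.64. Slc25a36, the other pyrimidine nucleotide carrier, was lower at 11 months (-0.33 ± 0.09, adjusted p = 0.0205), a call that ended without 11-month array 1, 3 or 4 (adjusted p = 0.0572, 0.0521 and 0.0767), and had 0.25 ± 0.09 at 6 weeks (adjusted p = 0.0831). Its difference between ages was -0.59 ± 0.12 (adjusted p = 0.0172). Slc25a17, which works in the peroxisomal membrane on coenzyme A and related cofactors, gave -0.41, -1.15, -1.15 and -1.30 at 11 months and 0.62, 1.11, -0.02 and -0.02 at 6 weeks. The ages did not overlap, and the fitted values were -1.0 ± 0.21 (2.0-fold lower, adjusted p = 0.00801) and 0.42 ± 0.21 (adjusted p = 0.206), differing by -1.42 ± 0.30 (adjusted p = 0.0169), a call lost without 11-month array 2 (adjusted p = 0.0533). Slc25a32, linked to folate and flavin transport, likewise separated the ages with -0.99, -1.18, -0.37 and -0.85 at 11 months and 0.66, 0.24, 0.25 and -0.01 at 6 weeks. It was lower at 11 months (-0.85 ± 0.10, adjusted p = 0.000673), and the difference of -1.13 ± 0.15 (adjusted p = 0.0033) kept its call in 20 of 20 alternative settings, 1 of which leaves a single 6-week array. Slc25a26, the carrier of S-adenosylmethionine, was lower at 11 months (-0.54 ± 0.11, adjusted p = 0.00661), and its second probe gave -1.02.

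**Figure D5:**
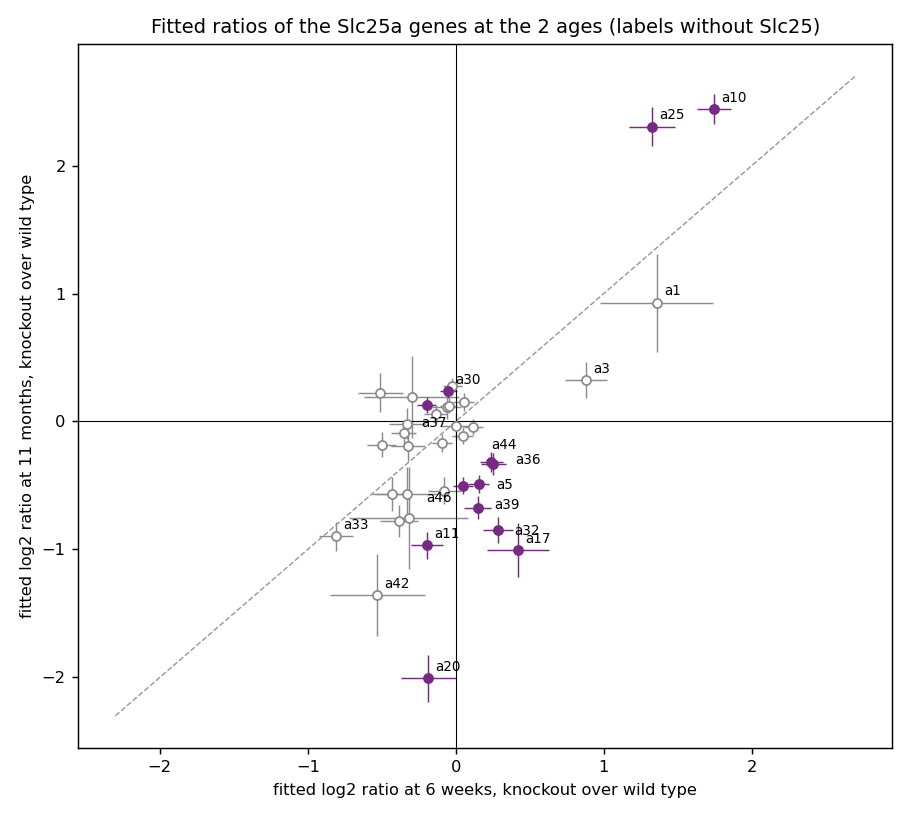
Fitted log2 ratios of the Slc25a genes at 11 months (vertical axis) against 6 weeks (horizontal axis) with 1 standard error, the dashed line marking equal ratios. The 13 filled points are called for the difference between ages; a10 and a25 lie at 2.44 and 2.31 on the 11-month axis, and a20 at -2.01.

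Among 8 amino acid carriers tested, 1 was lower at each age (12.5%, beside 16.8% of all genes at 11 months and 7.01% at 6 weeks). Slc25a44, described in brown fat as the mitochondrial entry for branched-chain amino acids, gave -0.40, -0.42, -0.32 and -0.13 at 11 months and 0.57, 0.31, -0.11 and 0.19 at 6 weeks. The 11-month value was -0.32 ± 0.08 (adjusted p = 0.0147) and the 6-week value 0.24 ± 0.08 (adjusted p = 0.0691), with a difference of -0.56 ± 0.11 (adjusted p = 0.0132). A second probe for the gene gave 0.07 and -0.01, and with the mean of both probes the calls at 11 months and for the difference ended (-0.13, adjusted p = 0.183, and -0.24, adjusted p = 0.114). The 11-month call also ended without 11-month array 2 or 3 (adjusted p = 0.0511 and 0.0641). Bcat2, which starts branched-chain breakdown in the matrix, was higher at 11 months (0.82 ± 0.25, adjusted p = 0.0352), and Bckdha, a subunit of the next enzyme, was lower (-1.48 ± 0.18, adjusted p = 0.000592). Slc25a38, a glycine carrier needed for haem synthesis, gave -0.14, -0.13, -0.18 and -0.28 at 11 months and -1.02, -0.57, -0.29 and -0.13 at 6 weeks. Only the 6-week value was called (-0.50 ± 0.10, adjusted p = 0.0166), and that call ended without 6-week array 3 (adjusted p = 0.0562). The difference of 0.32 ± 0.14 was not called (adjusted p = 0.153). The other uncalled carriers of this group had fitted values between -0.04 and 0.22 at 11 months and between -0.51 and 0.12 at 6 weeks. Slc25a18 and Slc25a15 were dim, with 4 and 11 of 16 channel measurements well above background.

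Mitoferrins and their relatives gave 1 call in 4 at 11 months and 0 in 4 at 6 weeks by limma, beside 34.7% and 16.2% of all genes, and 1 of 4 had an unadjusted p below 0.05 at 6 weeks. Slc25a39, the glutathione carrier, gave -0.45, -0.69, -0.84 and -0.71 at 11 months and 0.16, 0.40, -0.10 and 0.13 at 6 weeks. The ages did not overlap. It was lower at 11 months (-0.67 ± 0.09, 1.59-fold, adjusted p = 0.00121), and the difference was -0.82 ± 0.13 (adjusted p = 0.00672). Slc25a28, mitoferrin-2, which imports iron in most tissues, stayed near 0 with -0.05, -0.14, -0.32 and 0.07 at 11 months and 0.08, 0.04, 0.01 and 0.05 at 6 weeks, and its 95% intervals were -0.27 to 0.05 and -0.11 to 0.20. With median centring its 11-month value was 0.12. Slc25a37, mitoferrin-1, the erythroid form, gave 0.36, 0.08, 0.06 and 0.02 at 11 months and -0.17, -0.40, -0.09 and -0.12 at 6 weeks, separated between ages. Neither age was called, and the difference of 0.33 ± 0.09 (adjusted p = 0.0443) lost its call when any single array other than 6-week array 1 was left out (adjusted p between 0.0527 and 0.118). Slc25a40, a relative of Slc25a39, was not called, with 0.06 ± 0.07 at 11 months and -0.14 ± 0.07 at 6 weeks. Erythroid markers were called in 0 of 5 at either age by limma, with 0 of 5 below an unadjusted p of 0.05.

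Of the 3 uncoupling protein-like carriers, Slc25a30, also called kidney mitochondrial carrier protein 1, was higher at 11 months with ratios of 0.34, 0.33, 0.01 and 0.27, against -0.16, -0.15, 0.11 and 0.00 at 6 weeks. The rise of 0.24 ± 0.06 (adjusted p = 0.0147) was small and lost its call without 11-month array 1, 2 or 4 (adjusted p = 0.0573, 0.0574 and 0.0549). The difference of 0.29 ± 0.08 (adjusted p = 0.0453) lost its call when any single array other than 11-month array 3 was left out (adjusted p between 0.0803 and 0.12). Slc25a27, described in brain, gave -0.33, -0.36, -0.07 and 0.41 at 11 months and -0.30, -0.14, -0.54 and -0.43 at 6 weeks. Its 6-week value of -0.35 ± 0.09 (adjusted p = 0.0309) lost the call without any of the 6-week arrays (adjusted p = 0.139, 0.0921, 0.0954 and 0.0602 without arrays 1 to 4) and without 11-month array 1 or 2 (adjusted p = 0.05 and 0.0533), and held in 8 of 21 settings. Slc25a14 was not called, with 0.12 ± 0.10 at 11 months and -0.06 ± 0.10 at 6 weeks.

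Among the carriers with other or unsettled roles, Slc25a35 (-0.78 ± 0.13, adjusted p = 0.00257) and Slc25a46 (-0.50 ± 0.07, adjusted p = 0.00108), an outer membrane member linked to mitochondrial shape, were lower at 11 months. For Slc25a46 the difference between ages was -0.55 ± 0.10 (adjusted p = 0.00907), or 0.0853 without the 4 arrays of largest muscle median. Slc25a34 varied widely between arrays, from -1.59 to 0.03 at 11 months and from -1.55 to 0.73 at 6 weeks, and neither fitted value was called. Slc25a45 was not called either, with 0.12 ± 0.06 at 11 months and -0.05 ± 0.06 at 6 weeks.

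Relatives that the array lists under other names were tested in 8 of 10 cases, and 5 were lower at 11 months, beside 16.8% of all genes, and 2 at 6 weeks, beside 7.01%. Ucp1, the proton carrier of brown fat, gave -3.07, -3.46, -6.21 and -3.46 at 11 months and 0.31, 0.40, -0.28 and 0.10 at 6 weeks. Its fitted values were -4.05 ± 0.44 (16.6-fold lower, adjusted p = 0.000419) and 0.13 ± 0.44 (adjusted p = 0.864). Ucp2 and Ucp3 were called at neither age. Mtch2, a carrier-like protein of the outer membrane, fell by 1.07 ± 0.08 at 11 months (adjusted p = 9.19e-05), and Mtch1 was lower at 11 months (-0.76 ± 0.06, adjusted p = 0.000113) and at 6 weeks (-0.41 ± 0.06, adjusted p = 0.00671). Slc25a51, the NAD carrier, listed on the array as Mcart1, gave -0.98, -0.81, -1.30 and -1.28 at 11 months, a fall of 1.09 ± 0.17 (adjusted p = 0.00202), and 0.15 ± 0.17 at 6 weeks. Slc25a48 was lower at 11 months (-0.90 ± 0.22, adjusted p = 0.0176), and Slc25a47 at 6 weeks (-0.65 ± 0.13, adjusted p = 0.0186).

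Mitochondrial transporters outside the family, 12 tested, had 3 higher and 6 lower at 11 months, beside 17.9% and 16.8% of all genes, and 4 higher and 0 lower at 6 weeks, beside 9.18% and 7.01%. The subunits of the pyruvate carrier parted at 11 months, with Mpc2 lower (-0.67 ± 0.13, adjusted p = 0.00632) and Mpc1 at 0.04 ± 0.14 (adjusted p = 0.874), whereas at 6 weeks both were higher, Mpc1 by 1.04 ± 0.14 (adjusted p = 0.00482) and Mpc2 by 0.52 ± 0.13 (adjusted p = 0.0354). Sfxn1, the serine transporter, was higher at both ages (0.90 ± 0.09, adjusted p = 0.000316, and 0.95 ± 0.09, adjusted p = 0.00168). At 11 months Letm1, a cation-handling protein of the inner membrane, fell by 1.25 ± 0.12 (adjusted p = 0.000206), and Vdac2, a pore of the outer membrane, by 0.60 ± 0.07 (adjusted p = 0.000475).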

How the data were processed

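RNA from knockout and wild-type brown adipose tissue was compared on 8 Agilent 2-colour arrays (200 ng RNA per sample, 43020 non-control spots per array). Per the file headers, the authors deposited spot and background intensity values from Feature Extraction 10.5.1.1 (6 weeks) and 10.10.1.1 (11 months), with the scanner's log10 ratio of red over green. The authors also deposited a table of log2 ratios, made with limma per the submitters' processing notes; its normalization is not given in the sources at hand, and its values ran as knockout over wild type when set against the arrays.

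Background was corrected with normexp (offset 50) and dyes by loess in limma 3.58.1 (R 4.3.3). Ratios were turned to knockout over wild type by the labelled dyes. Probes were kept if they stood well above background in 4 or more of 16 channel measurements and had values on 3 or more arrays of each age (26853 of 39429), with the brightest probe standing for a gene. Of 21742 genes, 14810 were named through RefSeq and 6932 by the array's name. A single limma model held a coefficient per age and a shared dye coefficient (5 residual degrees of freedom), with Benjamini-Hochberg adjustment over all genes. Between 61.2% and 68.2% of spots per channel were well above background, and the number of arrays limits the precision. The procedure was also run on simulated data with independent noise and each gene's spread capped at the median over genes. That run cannot show how the procedure does at the spread of the noisier genes. Alternatives covered background, normalization, probe filter, probe choice, dye terms, the replicate block and left-out arrays.

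Values in every array are given for a list of 16 carriers, for the called carriers with up to 6 largest rises and 6 largest falls at each age, and for up to 4 called differences between ages in each direction; other called carriers are given by their fitted value. Members and lists were chosen with earlier results of these data known. The values of 1 tested carrier are not reported here, in text or figures, though the counts include it.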

Additional observations from a re-analysis of the deposited data

Results flagged for a closer look

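In 4 of the 76 sets of 4 arrays (38 carriers at each age), a single array stood apart from the other 3 by Dixon's criterion at the 95% level, which chance meets in about 1 in 20 sets. Slc25a1, the citrate carrier, had -0.072 in 11-month array 4, where the others lay between 1.19 and 1.33. Slc25a37, mitoferrin-1, had 0.36 in 11-month array 1, where the others lay between 0.02 and 0.08. Slc25a14 had -0.49 in 6-week array 2, with the others between 0.05 and 0.14, and Slc25a16 had -0.29 in 6-week array 1, with the others between -0.05 and -0.0045.

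The ratio differed between 11 months and 6 weeks by the limma test of the difference itself in 13 carriers. The ratio was higher at 11 months for Slc25a25 (0.98), Slc25a10 (0.69), Slc25a37 (0.33) and Slc25a30 (0.29). It was lower at 11 months for Slc25a20 (-1.82), Slc25a17 (-1.42), Slc25a32 (-1.13), Slc25a39 (-0.82), Slc25a11 (-0.77), Slc25a5 (-0.64), Slc25a36 (-0.59), Slc25a44 (-0.56) and Slc25a46 (-0.55). Age, slide, batch and scanner software cannot be told apart in these differences.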

How the results depend on the processing

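Slc25a10 and Slc25a25 at both ages, and Slc25a11, Slc25a20, Slc25a32 and Slc25a35 at 11 months, kept direction and call in all 21 alternative settings, of which the one without the 4 arrays of largest muscle median in size leaves 1 array at 6 weeks and is no check of the 6-week calls. Median centring moved most: 5 carriers lower at 11 months, 2 higher and 0 lower at 6 weeks (family median 0.0165), and 0 higher and 1 lower for the difference between ages. Over all genes it gave 329 higher and 223 lower for that difference, against 1840 and 2112 in the main model. It also turned the uncalled values of Slc25a20 (0.0573), Slc25a11 (0.0536) and Slc25a13 (-0.027) at 6 weeks and of Slc25a28 (0.12) at 11 months; the cause was not tested. The scanner's own log ratio gave 2 lower at 6 weeks (1014 of all genes, against 1525 in the main model). Its family median at 11 months was -0.40. That 11-month median was -0.10 with no filter on dim probes and -0.25 with a strict one. Without a dye coefficient 1 carrier had the higher ratio at 11 months (1119 of all genes, against 1840 in the main model). With a dye coefficient per age 9 were lower at 6 weeks (2192 of all genes, against 1525).

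Leaving out 1 array at a time gave 2 to 4 higher and 12 to 16 lower at 11 months (family median -0.21 to -0.13), 3 to 5 higher and 1 to 6 lower at 6 weeks (-0.08 to -0.05), and 0 to 3 higher and 8 to 12 lower for the difference. Over all genes the same runs gave 2575 to 3925 higher and 2452 to 3718 lower at 11 months. At 6 weeks they gave 767 to 2341 higher and 471 to 1937 lower, and for the difference 926 to 1577 higher and 1192 to 1806 lower. Slc25a12 ranged from -0.29 without 11-month array 4 to 0.41 at 11 months, and from -0.56 to 0.039 without 6-week array 2 at 6 weeks. Of the settings chosen after seeing the data, leaving out the 4 arrays with the largest muscle medians gave a 6-week family median of -0.0195 from the 1 array left, and -0.22 for Slc25a12 at 11 months. The muscle covariate gave 2 lower at 6 weeks (912 of all genes, against 1525 without it). It gave 2 with the higher ratio at 11 months (1214 of all genes, against 1840). Whether replicate numbers pair the arrays was not settled. Deviations of same-numbered arrays correlated at -0.12, -0.06, -0.20 and -0.08 as measured, at 0.46, 0.44, 0.17 and 0.32 after a shared dye term was removed (the same number was the best match for 3 of 4) and at 0.09, 0.09, -0.06 and -0.06 after a dye term per age. Same-numbered arrays carry opposite dyes, so removing a shared dye term itself raises these correlations. A replicate block gave 6 higher and 17 lower at 11 months, 5 higher and 6 lower at 6 weeks, and 4 higher and 11 lower for the difference. Over all genes the block gave 4023 higher and 3721 lower at 11 months, against 3897 and 3647 without it. At 6 weeks the block gave 2397 and 1789 of all genes, against 1995 and 1525. For the difference the block gave 2012 and 2233 of all genes, against 1840 and 2112. Its added calls included Slc25a1 (adjusted p = 0.00652), Slc25a3 (0.0125), Slc25a4 (0.0418) and Slc25a31 (0.0454) at 11 months and Slc25a31 at 6 weeks (0.0201). Added calls were followed by name only for the list of 16 carriers, and not for the difference. The block ended the call of Slc25a30 for the difference (0.097). With 4 arrays per age, dim carriers such as Slc25a18 are measured close to background.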
